A study of Oryctolagus cuniculus with 15 samples.

Results

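The genes described here are 8 cell cycle inhibitors and p53-linked checkpoint genes, CDKN1A, CDKN2C, GADD45A, GADD45G, MDM2, SFN, CHEK1 and CHEK2, out of 23428 genes in the expression tables. They were chosen by name, with earlier results of these data known, and all 8 were found by symbol. The series is bulk RNA-seq of primary corneal keratocytes, the resident cells of the corneal stroma, from New Zealand white rabbits. First-passage cells were kept for 6 days in serum-free medium in 5 conditions, with 3 libraries for each condition (n = 3 throughout). The 2DC cells grew on collagen-coated dishes and the 2DF cells on top of fibrillar collagen matrices. The 3DF cells were embedded within such matrices with 100k cells per matrix, and the 3DF_50 cells with 50k. The 2DC_L cells were a lysis control on the same collagen-coated surface as 2DC, lysed without digestion medium. The 2DC dishes were incubated with digestion medium and then lysed in the dish, and the cells of the 3 fibrillar conditions were freed from the matrices with it and pelleted before lysis. No drug, genetic change or DNA-damaging agent is named for any condition. Each library was made from several dishes or matrices combined, and the libraries of a condition came from separate experiments. In bulk RNA, fewer cells of a type and less RNA per cell cannot be told apart.

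Cells leave the division cycle when cyclin-dependent kinases (CDKs) are held in check by small inhibitor proteins. p21, made from CDKN1A, binds several cyclin-CDK complexes and is the best known transcriptional target of p53, the transcription factor that answers DNA damage and other stress. p18, made from CDKN2C, belongs to the INK4 family and blocks the cyclin D-dependent kinases CDK4 and CDK6. GADD45A and GADD45G are small stress sensors that feed into p38 and JNK signaling, MDM2 is the ubiquitin ligase that degrades p53 while being its target, SFN (14-3-3 sigma) holds CDK1 and cyclin B in the cytoplasm and is best known from epithelial cells, and CHEK1 and CHEK2 are the kinases that carry the signal of stalled forks and broken DNA. Keratocytes are quiescent in the normal cornea, and serum-free culture is used to keep them close to that state.

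The libraries held 14626982 to 31804255 counted reads, with the 3DF_50 libraries at most 16472547 and the 2DC libraries between 22238236 and 31804255. Keratocyte markers were high in every library, with KERA (keratocan) between 1507 and 4555 FPKM and LUM (lumican) between 5272 and 12432 FPKM, where FPKM is a read count scaled by gene length and library size. Summed markers of other cells moved in part with the conditions, and their part in the results was not tested. Summed FPKM of 7 corneal endothelium genes was 268 to 461 in 2DC, 2DC_L and 2DF and 105 to 220 in 3DF and 3DF_50. That of 7 vascular endothelium genes was 184 to 224 in 2DF and 3DF and 93.7 to 144 in the other conditions. These sums did not stand for every gene in them. In 3DF vs. 2DC, 6 of the corneal endothelium genes were tested, with 1 called higher and 1 lower (calls are defined below). They were ATP1B1 at a log2 fold change of 1.80 ± 0.25 and COL8A2 at -1.31 ± 0.24. In the same comparison, 5 of the vascular endothelium genes were tested, with KDR called higher and TIE1 lower. The sums ranged from 2.01 to 7.93 FPKM for 5 leukocyte genes and from 0.492 to 10.7 FPKM for 4 myofibroblast genes. Names of libraries carry a prefix (E2 to E10), whose meaning is not given and which conditions share in part. A gene is called changed here when edgeR's quasi-likelihood test gave an adjusted p (Benjamini–Hochberg, over all genes tested) no higher than 0.05 and a fold change of at least 2 in either direction (1 on the log2 scale). Log2 fold changes are given ± SE, and FPKM values as mean ± SD.

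All 8 genes differed among the 5 conditions at an adjusted p of at most 0.05 in 1 test per gene over the 15 libraries, where 41.8% of the 14036 genes tested did. The adjusted p ran from 6.17e-08 for CDKN2C to 0.0483 for CHEK2. The genes did not follow a common order of conditions. CDKN2C and CHEK1 had their 2 highest means in the collagen-coated conditions 2DC and 2DC_L, and so did CHEK2. CDKN1A, GADD45A and MDM2 had their lowest mean in 2DC_L and their highest in 3DF_50. GADD45G was highest in 2DC alone, and SFN was highest in 3DF.

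**Figure D1:**
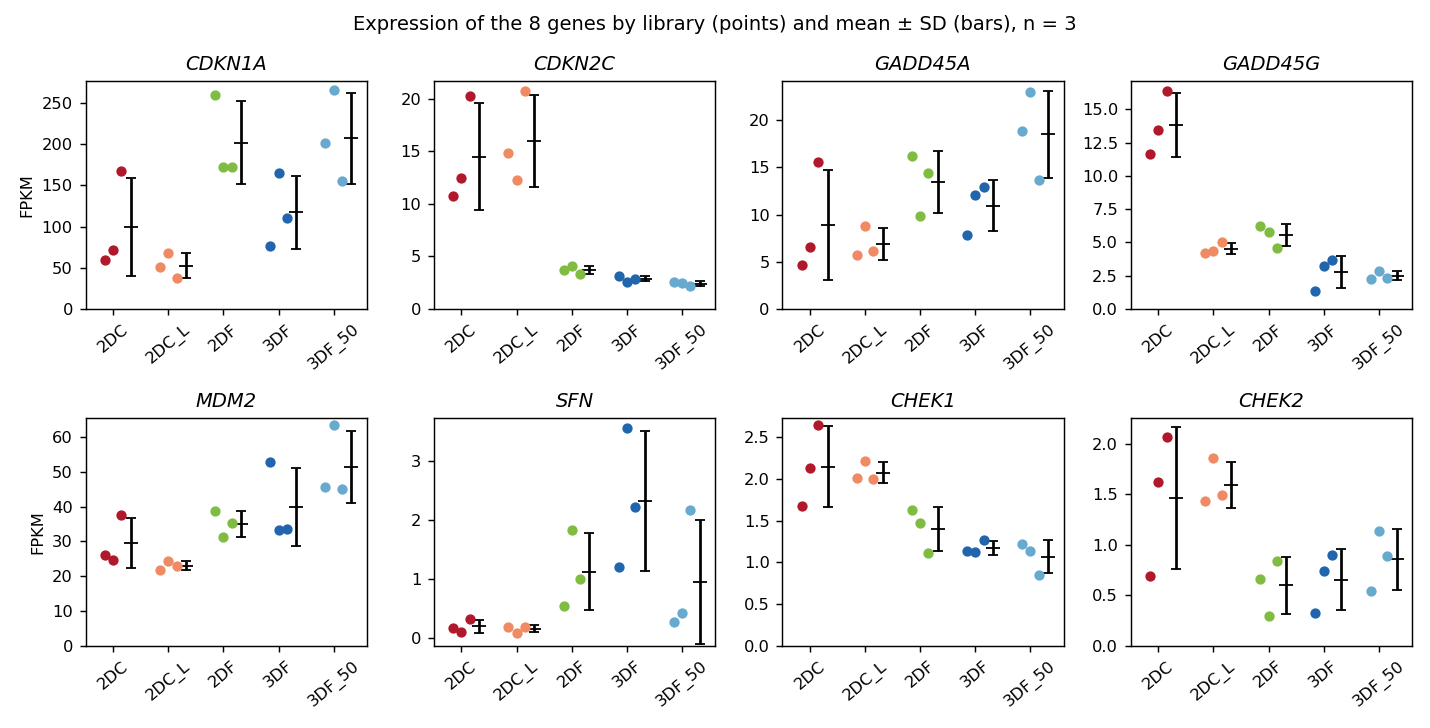
Expression of the 8 genes (y axis, FPKM, linear) in each library of the 5 conditions (x axis). Points are libraries, and black bars are the mean ± SD of 3 libraries (the bar of SFN in 3DF_50 reaches below 0). CDKN2C lies between 10.7 and 20.7 FPKM in the collagen-coated libraries and between 2.15 and 4.06 in the fibrillar ones.

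Of the 8 genes, 3 were called in 3DF vs. 2DC, with SFN higher and CDKN2C and GADD45G lower in 3DF. Over all 13493 genes tested 3.24% were called higher and 4.32% lower (437 and 583 genes, or 649 and 475 when scaled by library size alone). In 2DF vs. 2DC the calls were SFN higher, CDKN2C and GADD45G lower, against backgrounds of 2.04% called higher and 2.93% called lower. In 3DF_50 vs. 2DC the genes called were CDKN1A, higher, and CDKN2C, GADD45G and CHEK1, lower. The background there was 4.28% higher and 7.33% lower (574 and 983 genes, or 1206 and 633 by library size alone). These 3 comparisons share the 2DC libraries, and 3 others share the 2DC_L libraries. With the library prefix as a block, 0 of the 8 genes were called in 2DF vs. 2DC and 0 in 2DF vs. 2DC_L.

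Comparisons with 2DC_L combine a change of surface with the digestion step, which cannot be told apart in them. Against 2DC_L, CDKN1A was called higher and CDKN2C lower in each of 2DF, 3DF and 3DF_50. SFN was also called higher, and CHEK2 lower, in 2DF and in 3DF, while GADD45A and MDM2 were called higher in 3DF_50. The backgrounds were 2.93% higher and 4.46% lower for 2DF, 4.24% and 5.98% for 3DF (575 and 811 genes, or 835 and 643 by library size alone), and 5.05% and 8.47% for 3DF_50 (673 and 1128 genes, or 1357 and 747 by library size alone). Scaling by library size alone moved the median of all genes on the log2 scale to as much as 0.37, in 3DF_50 vs. 2DC, from 0.01. In the comparisons of fibrillar with collagen-coated conditions it turned the direction of none of the 8 genes.

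**Figure D2:**
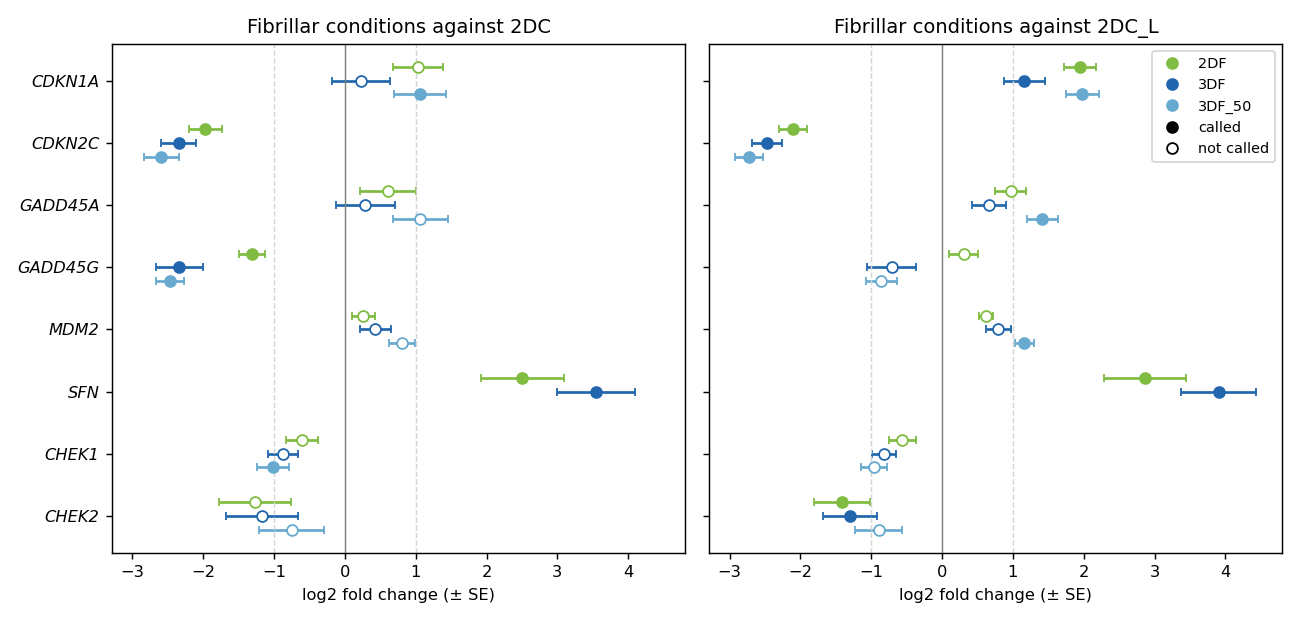
Log2 fold change (x axis, ± SE) of each of the 8 genes (y axis) in 2DF, 3DF and 3DF_50, against 2DC in the left panel and against 2DC_L in the right. Filled points were called by edgeR, open points were not, dashed lines mark a 2-fold change, and SFN in 3DF_50 was not tested. CDKN2C lies between -1.97 and -2.72 in all 6 comparisons.

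CDKN2C (chr13:115738912-115744842, minus strand, oryCun2) separated the collagen-coated from the fibrillar libraries without overlap. The levels were 10.7, 12.4 and 20.3 FPKM in 2DC and 14.9, 12.2 and 20.7 FPKM in 2DC_L. In the fibrillar conditions they were 3.65, 4.06 and 3.28 FPKM in 2DF, 3.10, 2.60 and 2.87 FPKM in 3DF, and 2.56, 2.48 and 2.15 FPKM in 3DF_50. No library of a fibrillar condition reached the lowest collagen-coated one, and 2DC and 2DC_L overlapped. The gene fell by 2.35 ± 0.25 on the log2 scale in 3DF vs. 2DC (adjusted p = 0.000635), by 1.97 ± 0.23 in 2DF vs. 2DC (adjusted p = 0.0012) and by 2.59 ± 0.24 in 3DF_50 vs. 2DC (adjusted p = 7.89e-05). It was called with any 1 library left out in each of these 3 comparisons. Between libraries that share a prefix the values were 20.3 FPKM in 2DC and 3.10 in 3DF under E6, and 12.4 FPKM in 2DC, 12.2 in 2DC_L and 2.56 in 3DF_50 under E3. No 2DF library shares a prefix with a collagen-coated one. With the prefix as a block CDKN2C was not called in 2DF vs. 2DC (-1.93 on the log2 scale, adjusted p = 0.188). Among the fibrillar conditions CDKN2C was not called, and the closest was 3DF_50 vs. 2DF with a log2 fold change of -0.60 ± 0.18 (adjusted p = 0.0534).

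CDKN1A (chr12:26614081-26621175, plus strand) was the most abundant of the 8 genes and varied widely within conditions. Its levels were 59.5, 71.5 and 167 FPKM in 2DC, and 51.2, 68.1 and 38.0 FPKM in 2DC_L. They were 260 (259.83), 173 and 172 FPKM in 2DF, 76.5, 165 and 111 FPKM in 3DF, and 201, 265 and 155 FPKM in 3DF_50. All 3DF_50 libraries and all 2DF libraries but none of the 2DC_L libraries exceeded 150 FPKM, and 2DC replicate 3 lay far above the other two 2DC libraries. Against 2DC_L the gene was 1.95 ± 0.23 higher on the log2 scale in 2DF (adjusted p = 0.000305), 1.98 ± 0.23 higher in 3DF_50 (adjusted p = 0.000119) and 1.16 ± 0.29 higher in 3DF (adjusted p = 0.0186). The call in 3DF held in 3 of 6 fits with 1 library left out, and was lost without 2DC_L replicate 1 or 3 or 3DF replicate 2.

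Against 2DC the differences in CDKN1A depended on single libraries. The log2 fold change was 1.03 ± 0.36 in 2DF (adjusted p = 0.0873), 1.06 ± 0.36 in 3DF_50 (adjusted p = 0.046) and 0.23 ± 0.41 in 3DF (adjusted p = 0.744). Without 2DC replicate 3 it was 1.63 in 2DF (adjusted p = 0.00186) and 1.66 in 3DF_50 (adjusted p = 0.000356), both called. The call in 3DF_50 was lost when any other library was left out. Without 2DC replicate 1 or 3DF replicate 2 the value in 3DF was below 0. Under prefix E6, which 2DC replicate 3 shares with 3DF replicate 1, CDKN1A was higher in 2DC (167 FPKM) than in 3DF (76.5 FPKM), and under E3 it was higher in 3DF_50 (201 FPKM) than in 2DC (71.5 FPKM).

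The other CDK inhibitors of the table showed less change than CDKN2C. CDKN1B (p27) ranged from 22.1 to 36.0 FPKM over the 15 libraries, CDKN2D (p19) from 10.3 to 17.8 FPKM, CDKN3 (a phosphatase that acts on CDK2) from 0.333 to 1.15 FPKM, and CDKN2B (p15) stayed at or below 0.521 FPKM. None of the 4 was called in 3DF vs. 2DC by edgeR or by DESeq2, and 2 had an unadjusted p below 0.05 in edgeR. CDKN1B had a log2 fold change of 0.61 ± 0.12 in 3DF vs. 2DF (adjusted p = 0.0148), below the fold limit, with 32.1 to 36.0 FPKM in 3DF and 22.1 to 22.9 FPKM in 2DF. CDKN1C and CDKN2A were not analysed here. Of 11 genes of the cyclin D-CDK-RB axis, on which CDKN2C acts, edgeR and DESeq2 called 0 in 3DF vs. 2DC and in 2DF vs. 2DC, where 6 and 5 had an unadjusted p below 0.05 in edgeR. In 3DF_50 vs. 2DC 2 were called lower, named here after their values were seen. They were CDK6, a kinase that p18 blocks, at -1.17 ± 0.21 (adjusted p = 0.00236), and E2F3, a transcription factor of the G1/S transition, at -1.11 ± 0.17 (adjusted p = 0.00114). Both were also called lower in 3DF_50 vs. 2DC_L.

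GADD45G (chr1:78240320-78241422, minus strand) was the only gene of the 8 called between 2DC and 2DC_L, which share a surface and differ in the incubation with digestion medium before lysis. Its levels were 11.6 (11.65), 13.4 and 16.4 FPKM in 2DC and 4.23, 4.33 and 5.03 FPKM in 2DC_L. In the fibrillar conditions they were 6.22, 5.79 and 4.6 FPKM in 2DF, 1.37, 3.24 and 3.69 FPKM in 3DF, and 2.27, 2.88 and 2.32 FPKM in 3DF_50. Every 2DC library lay above every library of the other 4 conditions, and 2DC_L and 2DF overlapped. The gene was 1.61 ± 0.16 higher on the log2 scale in 2DC than in 2DC_L (adjusted p = 0.00488), where 0.257% of 13608 genes were called higher in 2DC. The difference was as large within the shared prefixes, at 11.6 and 4.23 FPKM under E2 and 13.4 and 4.33 FPKM under E3.

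Against 2DC, GADD45G fell by 2.34 ± 0.34 on the log2 scale in 3DF (adjusted p = 0.00276), by 1.31 ± 0.19 in 2DF (adjusted p = 0.00279) and by 2.47 ± 0.19 in 3DF_50 (adjusted p = 3.09e-05), and it was called in 6 of 6 fits with 1 library left out in each. Against 2DC_L, the other collagen-coated condition, it was called in none of the 3. There the log2 fold changes were -0.71 in 3DF (adjusted p = 0.162), -0.86 ± 0.22 in 3DF_50 (adjusted p = 0.0111, below the fold limit) and 0.30 in 2DF (adjusted p = 0.338). GADD45G also fell by 1.14 ± 0.25 on the log2 scale in 3DF_50 vs. 2DF (adjusted p = 0.0115), and this call was lost without 3DF_50 replicate 1. There 3.01% of genes were called lower in 3DF_50 (190 genes were called higher and 397 lower, or 394 and 287 by library size alone).

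Early response genes, such as FOS and EGR1, are switched on within minutes of a stimulus, and 24 of them were summed beside GADD45G. Their summed level was 598 to 649 FPKM in 2DC_L, 2915 to 3160 FPKM in 2DC, 5084 to 5644 FPKM in 2DF, 3611 to 6922 FPKM in 3DF and 3171 to 3895 FPKM in 3DF_50. Of the 24 genes, 14 were called higher in 2DC than in 2DC_L, and 0 lower, where 0.257% of all genes were called higher. GADD45G was thus higher in 2DC than in 2DC_L together with this list. Against 2DC, where GADD45G was called lower in all 3 fibrillar conditions, the list had 9 genes called higher and 1 lower in 3DF, 10 higher and 0 lower in 2DF, and 8 higher and 3 lower in 3DF_50. The part of the digestion step in the level of GADD45G was not tested in the fibrillar conditions, whose libraries analysed here were all made after digestion.

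GADD45A (chr13:98577231-98580357, minus strand) ran more closely with CDKN1A than with its relative GADD45G. Its levels were 4.65, 6.52 and 15.6 FPKM in 2DC, 5.75, 8.81 and 6.11 FPKM in 2DC_L, and 16.2, 9.81 and 14.5 FPKM in 2DF. They were 7.84, 12.0 and 13.0 (12.95) FPKM in 3DF and 18.8, 23.0 and 13.7 FPKM in 3DF_50. Replicate 3 of 2DC was again the high library of its condition, and without it 2DC and 3DF_50 did not overlap. The 1 call was 3DF_50 vs. 2DC_L, with a log2 fold change of 1.42 ± 0.21 (adjusted p = 0.000536), and it held with any 1 library left out. In 3DF_50 vs. 2DC the log2 fold change was 1.06 ± 0.39 (adjusted p = 0.0603), and without 2DC replicate 3 it was 1.74 (adjusted p = 0.000552). The value in 2DF vs. 2DC was 0.61 ± 0.40 (adjusted p = 0.338), and 1.28 (adjusted p = 0.0118) without that library. In 3DF vs. 2DC it was 0.29 ± 0.41 (adjusted p = 0.68).

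Over the 15 libraries log2(FPKM + 1) of GADD45A and CDKN1A had a Pearson r of 0.91, and r was 0.89 after the mean of each condition was subtracted. The 2 genes therefore also moved together between libraries of a condition, with 2DC replicate 3 at 167 and 15.6 FPKM and 2DF replicate 1 at 260 and 16.2 FPKM. For GADD45A and GADD45G the corresponding r was -0.30 over all libraries and 0.59 within conditions. These values share depth and preparation within a library and are given as a description. GADD45B, the third gene of the family, was not analysed here.

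**Figure D3:**
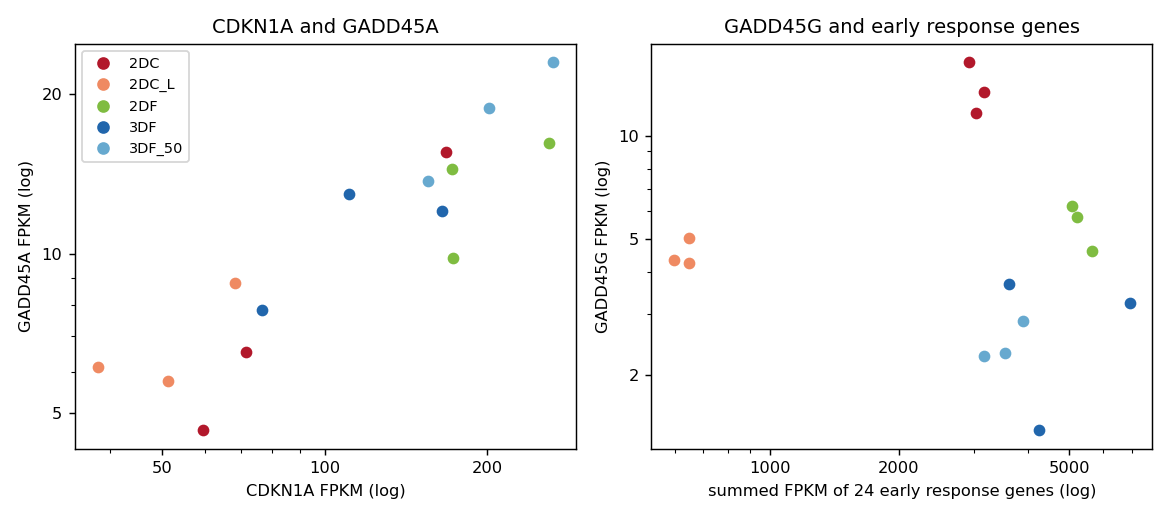
Left, CDKN1A (x axis) and GADD45A (y axis), and right, the summed level of 24 early response genes (x axis) and GADD45G (y axis), all in FPKM on log axes. Each point is 1 of 15 libraries, coloured by condition. Left, the points run along a common diagonal (r = 0.91). Right, the 2DC libraries lie at 11.6 to 16.4 FPKM of GADD45G, above all others.

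MDM2 (chr4:47780978-47813244, plus strand) varied least between its highest and lowest libraries, by 2.90-fold. Its levels were 26.0, 24.7 and 37.7 FPKM in 2DC, 21.9, 24.4 and 22.8 FPKM in 2DC_L, and 38.8, 31.4 and 35.2 FPKM in 2DF. They were 52.97, 33.3 and 33.7 FPKM in 3DF and 45.7, 63.5 and 45.2 FPKM in 3DF_50. The 2DC_L libraries lay below all fibrillar ones, and 2DC overlapped with 2DF and 3DF but not with 3DF_50. The log2 fold change was 1.16 ± 0.13 in 3DF_50 vs. 2DC_L (adjusted p = 9.5e-05), which was called and fell to 0.98 without 3DF_50 replicate 2. At an adjusted p of at most 0.05 but under the fold limit were 3DF_50 vs. 2DC at 0.81 ± 0.18 (adjusted p = 0.0086), 3DF vs. 2DC_L at 0.80 ± 0.18 (adjusted p = 0.013), 2DF vs. 2DC_L at 0.62 ± 0.10 (adjusted p = 0.00218) and 3DF_50 vs. 2DF at 0.57 ± 0.14 (adjusted p = 0.021).

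The genes that act on p53 alongside MDM2 were, like MDM2, called in neither 3DF vs. 2DC nor 2DF vs. 2DC. MDM4, a partner of MDM2 that restrains p53, ranged from 8.01 to 12.2 FPKM over the 15 libraries. Among 11 p53 regulators tested other than MDM2, edgeR and DESeq2 called 0 in 3DF vs. 2DC and 0 in 2DF vs. 2DC. There 1 and 3 had an unadjusted p below 0.05 in edgeR. In 3DF vs. 2DC their log2 fold changes ran from -0.86 ± 0.52 for TP63 (adjusted p = 0.316) to 0.60 ± 0.17 for PPM1D (adjusted p = 0.0435). MDM2 was at 0.43 ± 0.22 there (adjusted p = 0.243). PPM1D, named here after its values were seen, was at 0.90 ± 0.18 in 3DF vs. 2DC_L (adjusted p = 0.00644), under the fold limit.

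Some other targets of p53 were called higher in fibrillar conditions, and none was called lower against a collagen-coated one. In 3DF vs. 2DC, 6 of 34 targets tested beside the genes above were called higher and 0 lower, where 3.24% of all genes were called higher, with a median log2 fold change of 0.28 where that of all genes was 0.01. Among them were PERP (a desmosomal protein) at 2.20 ± 0.39 and PLK3 (a stress-responsive kinase) at 2.19 ± 0.34. In 2DF vs. 2DC, 2 of 33 were called higher, where 2.04% of all genes were, among them PLK3 at 2.88 ± 0.32. The count was 12 of 33 in 3DF_50 vs. 2DC_L, where 5.05% of all genes were called higher, with a median of 0.71. These lists overlap with others, since PERP is also an epithelial marker and PLK3 and BTG2 are also early response genes. BTG2, an antiproliferative gene, had 177 to 223 FPKM in 2DC and 10.4 to 12.1 FPKM in 2DC_L, and was the 1 target of 34 called between them. SESN2 (sestrin 2, a stress-induced antioxidant protein) was the 1 target of 34 called in 3DF vs. 3DF_50, with a log2 fold change of -1.02 ± 0.17 (adjusted p = 0.0393).

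CHEK1 (chr1:91625618-91654653, minus strand), the kinase that ATR activates at stalled replication forks, had low levels. They were 1.67, 2.13 and 2.64 FPKM in 2DC, 2.01, 2.22 and 2.00 FPKM in 2DC_L, and 1.62, 1.47 and 1.11 FPKM in 2DF. They were 1.13, 1.12 and 1.27 FPKM in 3DF and 1.22, 1.13 and 0.842 FPKM in 3DF_50. All collagen-coated libraries lay above all fibrillar ones, although 2DC replicate 1 (1.67 FPKM) and 2DF replicate 1 (1.62 FPKM) were close. CHEK1 fell by 1.01 ± 0.23 on the log2 scale in 3DF_50 vs. 2DC (adjusted p = 0.00782). This was its only call, and it was lost without 2DC replicate 3 or 3DF_50 replicate 3. In 3DF the log2 fold change was -0.88 ± 0.21 against 2DC (adjusted p = 0.0258) and -0.82 ± 0.18 against 2DC_L (adjusted p = 0.00919), under the fold limit in both, and in 2DF it was -0.61 ± 0.23 against 2DC (adjusted p = 0.11).

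CHEK2 (unplaced scaffold Un0025, 1964602 to 2003684, minus strand), the kinase that ATM activates at broken DNA, rested on 7 to 72 counts per library. Its levels were 0.695, 1.62 and 2.08 FPKM in 2DC, 1.44, 1.86 and 1.4965 FPKM in 2DC_L, and 0.666, 0.289 and 0.838 FPKM in 2DF. They were 0.320, 0.741 and 0.902 FPKM in 3DF and 0.537, 1.14 and 0.890 FPKM in 3DF_50. The 2DC_L libraries lay above all fibrillar ones, whereas 2DC replicate 1 lay among them. CHEK2 fell by 1.304 ± 0.38 on the log2 scale in 3DF (adjusted p = 0.0354) and by 1.41 ± 0.40 in 2DF (adjusted p = 0.0298) against 2DC_L, and each call held in only 1 of 6 fits with 1 library left out. It was lost in 3DF vs. 2DC_L unless 3DF replicate 3, and in 2DF vs. 2DC_L unless 2DF replicate 3, was the library left out. Against 2DC the log2 fold change was -1.17 ± 0.50 in 3DF (adjusted p = 0.164), -1.27 ± 0.51 in 2DF (adjusted p = 0.134) and -0.75 in 3DF_50 (adjusted p = 0.223).

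The upstream kinases did not share this pattern. ATM ranged from 4.18 to 7.34 FPKM and ATR from 3.25 to 6.05 FPKM, each with its highest level in 3DF replicate 1. Of 20 other checkpoint kinases and adaptors tested, 4 were called lower and 0 higher in 3DF vs. 2DC, and 3 lower and 0 higher in 2DF vs. 2DC. Over all genes 4.32% and 2.93% were called lower in these 2 comparisons. The median log2 fold changes were -0.03 and -0.05. Of the 21 genes listed, 20 reached 1 FPKM in some library of 2DC, 17 in 2DF and 16 in 3DF. A gene could thus pass the count filter through 2DC alone, and one low in both conditions was not tested, which limits these counts. CLSPN (claspin, the adaptor of CHEK1) was at 0.176, 1.25 and 2.47 FPKM in 2DC and at most 0.0248 FPKM in any fibrillar library. BRCA1 was at 0.308, 1.07 and 1.74 FPKM in 2DC and at most 0.134 FPKM in any fibrillar library. The other genes called lower were CDC25A, a phosphatase that activates CDKs, in both comparisons, and CDC25B in 3DF alone, with log2 fold changes of -1.53 ± 0.36 and -1.09 ± 0.17 in 3DF vs. 2DC.

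Many proliferation genes, like CDKN2C, CHEK1 and CHEK2, had lower means in the fibrillar than in the collagen-coated conditions. Of 34 E2F and G2/M genes tested 19 were called lower and 0 higher in 3DF vs. 2DC, and of 32 tested 16 were called lower and 0 higher in 2DF vs. 2DC. Over all genes 4.32% and 2.93% were called lower. Of the 37 genes listed, 36 reached 1 FPKM in some library of 2DC, 17 in 2DF and 16 in 3DF. A gene could thus pass the count filter through 2DC alone, and one low in both conditions was not tested, which limits these counts. MKI67, the usual marker of dividing cells, was at 0.199, 1.09 and 3.36 FPKM in 2DC and 0.934, 1.05 and 2.54 FPKM in 2DC_L. It was at or below 0.0710 FPKM in 2DF and 0.00462 FPKM in 3DF, and was listed at 0 in all 3DF_50 libraries. The summed level of 37 such genes was 100.2, 190.9 and 351.4 FPKM in 2DC, 194 to 239 FPKM in 2DC_L, 88.4 to 92.8 FPKM in 2DF, 89.5 to 103 FPKM in 3DF and 102 to 116 FPKM in 3DF_50. Among the fibrillar conditions this sum reached its highest value in 3DF_50, where CDKN2C and CHEK1 had their lowest means. In 2DC replicate 1 the sum lay within the range of the fibrillar libraries. There CDKN2C was 10.7 FPKM, above all fibrillar libraries, CHEK1 was 1.67 FPKM, just above them, and CHEK2 was 0.695 FPKM, among them. The sum did not stand for every gene in it, and MKI67 in that library (0.199 FPKM) also lay above all fibrillar libraries. In 2DC the library with the highest sum, replicate 3, also had the highest CDKN1A and GADD45A. The part of dividing cells in these levels was not tested.

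**Figure D4:**
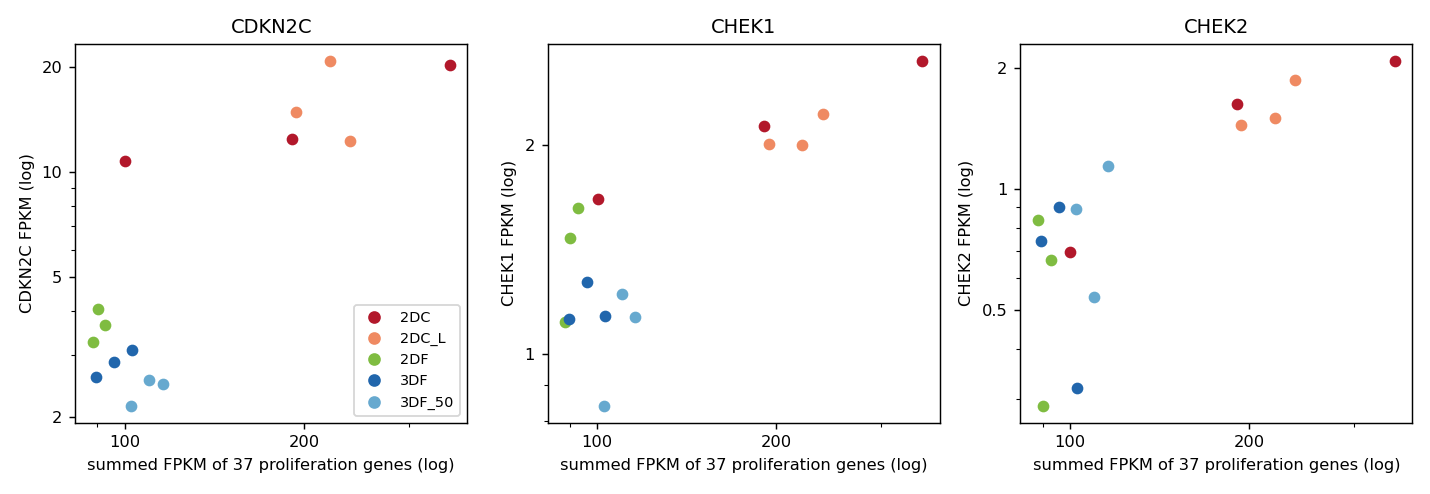
CDKN2C, CHEK1 and CHEK2 (y axes, FPKM) against the summed level of 37 proliferation genes (x axes, FPKM), all on log axes, in 15 libraries coloured by condition. One 2DC library has a sum of 100.2 FPKM, within the fibrillar range of 88.4 to 116, and there CDKN2C is at 10.7 FPKM while CHEK2 is at 0.695. The sum does not stand for every gene in it, and MKI67 in that library lay above all fibrillar ones.

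SFN (chr13:138502541-138503810, minus strand) had the largest fold changes of the 8 genes and the lowest level in any library, 0.0836 FPKM. Its levels were 0.161, 0.107 and 0.320 FPKM in 2DC and 0.191, 0.0836 and 0.190 FPKM in 2DC_L, resting on 3 to 9 counts per library. They were 0.539, 1.83 and 0.995 FPKM in 2DF, 1.19, 3.55 and 2.22 FPKM in 3DF, and 0.268, 0.425 and 2.16 FPKM in 3DF_50. All 2DF and 3DF libraries lay above all collagen-coated ones, while 3DF_50 held 2 low libraries and 1 high. The log2 fold change was 3.54 ± 0.55 in 3DF vs. 2DC (adjusted p = 0.00375), 2.51 ± 0.58 in 2DF vs. 2DC (adjusted p = 0.0226), 3.91 ± 0.53 in 3DF vs. 2DC_L (adjusted p = 0.000873) and 2.86 ± 0.58 in 2DF vs. 2DC_L (adjusted p = 0.00669). The call in 2DF vs. 2DC was lost without 2DC replicate 1 or 2 or 2DF replicate 2. The others held with any 1 library left out. SFN passed the count filter in these comparisons through 2DF or 3DF alone, which limits these calls. SFN did not pass the filter on low counts in 3DF_50 vs. 2DC, and without the filter its log2 fold change there was 2.27 ± 0.75 (adjusted p = 0.0378). The 3DF_50 libraries held 6, 10 and 54 counts. With the filter and 1 library left out, SFN was tested in 4 of 6 fits and called in 1 (adjusted p from 0.0317 to 0.155).

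The summed level of corneal epithelium markers moved with SFN, although not every marker did. KRT12, the keratin that defines this epithelium, was listed at 0 in all 2DC and 2DC_L libraries. It was at 0, 1.26 and 0.250 FPKM in 2DF, 2.47, 4.40 and 3.72 FPKM in 3DF, and 0, 0 and 2.13 FPKM in 3DF_50. The libraries with the highest SFN in 2DF, 3DF and 3DF_50 were also those with the highest KRT12. The summed level of 18 epithelial markers was 1.68 to 2.37 FPKM in 2DC, 1.58 to 3.19 FPKM in 2DC_L, 2.52 to 9.60 FPKM in 2DF, 12.9 to 18.2 FPKM in 3DF, and 1.25, 1.21 and 9.73 FPKM in 3DF_50. Besides KRT12, DSG3 was at 0 in every library of 2DC, and DSG3, EPCAM and ESRP1 were at 0 in every library of 2DC_L. In the fibrillar conditions KRT15 and EPCAM were at 0 in every library of 2DF, and KRT15 in every library of 3DF_50. Of the 11 markers tested in 3DF vs. 2DC 8 were called higher and 0 lower, where 3.24% of all genes were called higher. No marker of the list reached 1 FPKM in any 2DC library. A marker could thus pass the count filter through 3DF alone, and one low in both conditions was not tested, which limits this count. TP63, among the 11, had a value below 0, at -0.86 ± 0.52 (adjusted p = 0.316). Under prefix E7, SFN was at 0.190 FPKM in 2DC_L, 3.55 in 3DF and 2.16 in 3DF_50, and the epithelial sum was the highest of its condition in each of these libraries. The part of epithelial RNA in the level of SFN was not tested.

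**Figure D5:**
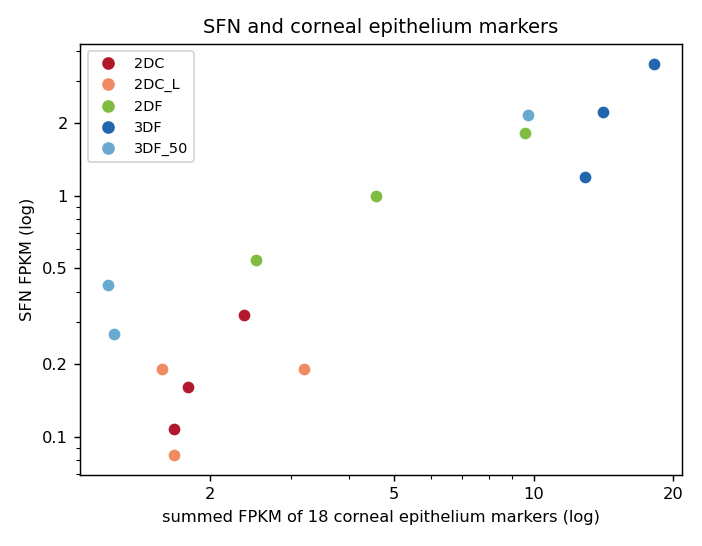
SFN (y axis, FPKM) against the summed level of 18 corneal epithelium markers (x axis, FPKM), both on log axes, in 15 libraries coloured by condition. The 3DF libraries have sums of 12.9 to 18.2 FPKM, and the single 3DF_50 library with high SFN (2.16 FPKM) has a sum of 9.73 FPKM.

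None of the 8 genes was called between 3DF and 2DF or between 3DF and 3DF_50. In 3DF vs. 2DF edgeR and DESeq2 called 0 of 8, where 3.78% of 13195 genes were called by edgeR, and 2 had an unadjusted p below 0.05. The log2 fold changes were -0.78 ± 0.27 for CDKN1A (adjusted p = 0.129), -1.01 ± 0.35 for GADD45G (adjusted p = 0.135) and 1.05 ± 0.50 for SFN (adjusted p = 0.255), and those of the other 5 genes lay between -0.35 and 0.19. Without 3DF replicate 2, the 3DF library with the highest CDKN1A, the value for CDKN1A was -1.11 (adjusted p = 0.0237), which would be called. In 3DF vs. 3DF_50 edgeR and DESeq2 also called 0 of 8, where 0.452% of 13285 genes were called by edgeR (42 higher and 18 lower in 3DF, or 24 and 29 by library size alone), and 2 had an unadjusted p below 0.05. CDKN1A, at -0.85 ± 0.28 (adjusted p = 0.154), and GADD45A, at -0.79 ± 0.24 (adjusted p = 0.135), had lower values in 3DF, the denser culture, and SFN a higher value, at 1.23 ± 0.67 (adjusted p = 0.335). CDKN1A in 3DF (76.5 to 165 FPKM) overlapped with 3DF_50 (155 to 265 FPKM), whereas GADD45A did not (7.84 to 13.0 FPKM against 13.7 to 23.0 FPKM).

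The genes whose log2(FPKM + 1) ran most like each of the 8 over the 15 libraries were sought among 9689 genes with a symbol and a mean of at least 1 FPKM. For CDKN1A they were LIF (r = 0.97), FOSL1 (r = 0.95) and BRD2 (r = 0.93), and for GADD45A they were RSL1D1 (r = 0.95), F3 (r = 0.93) and SNRNP200 (r = 0.92). CDKN2C ran with INSIG1 (r = 0.99), which controls sterol synthesis, and with MSMO1 (r = 0.98), an enzyme of that pathway. SFN ran with the keratins KRT5 (r = 0.94) and KRT17 (r = 0.94) and with PTPRG (r = 0.91). CHEK2 ran with TLCD1 (r = 0.89), TRIP13 (r = 0.89), which acts in the mitotic checkpoint, and PFAS (r = 0.89). For CHEK1 they were ANAPC13, PTX3 and AP2M1 (r of 0.94 to 0.95), for MDM2 NAA25, INO80 and SBNO1 (r = 0.96 each), and for GADD45G DHDDS (r = 0.91), ACTB (r = 0.85) and TPM4 (r = 0.83). These points share conditions, libraries and depth, and no test was made.

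GADD45G and CHEK1 lie within a single annotated span of GNG10 on the same chromosome and strand (chr1:1624055-123554260). Whether exons overlap is not given in the tables, nor is the strand setting of the counting, so a share of reads between GNG10 and these genes cannot be told apart. The other 6 genes had no overlapping entry in the tables.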

How the data were processed

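Bulk RNA-seq of 15 keratocyte libraries was analysed, with 3 libraries in each of 5 conditions read from the labels. The authors aligned reads to oryCun2 with HISAT2 and counted them with featureCounts, and the counts as deposited give reads per gene, unscaled. The authors' deposited FPKM values are these counts scaled by gene length and library size. The tables hold 23428 genes, of which 15408 have a symbol. Strand settings are not given in the sources used here. Total counts were 14626982 to 31804255 per library, and p-values measure the spread between separate experiments.

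In R 4.3.3, edgeR 4.0.16 was used for each of the 10 pairs of conditions. Genes were filtered with filterByExpr (minimum count 10), libraries were scaled by TMM, and the quasi-likelihood F test (two-sided) used only the libraries compared. A further F test covered the 5 conditions. P-values were adjusted by Benjamini–Hochberg over all genes tested. Calls needed an adjusted p no higher than 0.05 and a change of 1 or more on the log2 scale. The SE was taken as the log2 fold change over the root of F. The fit was tested on simulated data. FPKM served for levels, and likeness used log2(FPKM + 1). Alternatives were DESeq2 1.42.0, other scalings and filters, other models, limma 3.58.1 (log2 FPKM with a pseudocount of 1 or 0.1), and leaving out each library. Python 3.11.15, numpy 2.4.6, pandas 2.3.3 and matplotlib 3.10.9 were also used.

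The 8 genes and the gene lists (202 of 226 listed symbols found) were chosen with earlier results of these data known. Named beside the 8 genes are other CDK inhibitors, MDM4, ATM, ATR, MKI67, KRT12, markers, at most 5 called genes per list and comparison, and the 3 genes most like each of the 8. Some genes that this rule names were tested and counted but are not reported here. Markers of corneal endothelium, vascular endothelium, leukocytes and myofibroblasts were summed as well. Sequences of the genes were not used here.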

Additional observations from a re-analysis of the deposited data

How the results depend on the processing

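Refits were counted for 56 log2 fold changes of the 8 genes, those that were called, were at least 0.5 in size or belong to 3DF vs. 2DC. Of 894 refits 812 kept direction and side of the threshold, 56 kept direction and lost the threshold, 23 gained it and 3 turned direction. Those 3 were in 3DF vs. 2DC, with log2 fold changes of -0.034 (without 2DC replicate 1) and -0.10 (without 3DF replicate 2) for CDKN1A and -0.026 (without 2DC replicate 1) for GADD45A. With 1 library left out the highest values there were 0.84 for CDKN1A and 0.97 for GADD45A. Smaller changes outside this count also turned direction with 1 library left out, among them GADD45A in 2DC vs. 2DC_L, CHEK2 and MDM2 in 3DF vs. 2DF, CDKN1A in 3DF_50 vs. 2DF and GADD45G in 3DF vs. 3DF_50. With 1 library left out, the number of the 8 genes called was 3 to 4 in 3DF vs. 2DC, 2 to 5 in 2DF vs. 2DC, 0 to 1 in 3DF vs. 2DF, 2 to 5 in 3DF_50 vs. 2DC, 0 to 1 in 3DF_50 vs. 2DF, 2 to 4 in 3DF vs. 2DC_L, 3 to 4 in 2DF vs. 2DC_L and 4 to 6 in 3DF_50 vs. 2DC_L.

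With the library prefix as a block in a model of all 5 conditions, 0 of the 8 were called in 2DF vs. 2DC, 0 in 2DF vs. 2DC_L, 0 in 3DF_50 vs. 2DF and 2 in 3DF_50 vs. 2DC, and 5 differed among the 5 conditions. Only 1 of the 2DF libraries shares its prefix with another condition, so these fits leave little to estimate 2DF from. With all 5 conditions in one model 1 gene was called in 3DF vs. 2DF. With limma on log2(FPKM + 1) 2 were called in 3DF_50 vs. 2DC, 2 in 2DF vs. 2DC_L and 0 in 3DF_50 vs. 2DF, and on log2(FPKM + 0.1) 2 in 3DF_50 vs. 2DC. In 3DF_50 vs. 2DF library size alone gave 0 and no fold limit gave 2. Beyond these constructions the cause was not tested.

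The replicate numbers do not mark a pairing throughout, and the main tests used none. In 2DC and 2DC_L the libraries numbered 1 share prefix E2 and those numbered 2 share E3. Those numbered 3 differ, with E6 in 2DC and E7 in 2DC_L. In none of the 10 comparisons did all 3 same-numbered pairs correlate above 0.1 (2DC vs. 2DC_L: 0.322, 0.0644 and 0.105), and at most 5 of 6 libraries correlated best with their own number. With the replicate number as a replicate block 4 of the 8 were called in 3DF vs. 2DC, adding CHEK2 (adjusted p = 0.0494), and 3 in 2DF vs. 2DC_L. Low counts limit SFN and CHEK2 most.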
